A study of Mus musculus with 4 samples.

Results

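The accessible regions around 9 transcription factor genes that are known for shaping the macrophage lineage were described by the deposited ATAC-seq peak lists. The genes were Spi1, Ets2, Fli1, Elf1, Mitf, Tfec, Maf, Klf4 and Bhlhe40, 9 of 21422 protein-coding genes with a known strand, and they were chosen by name. The window of a gene ran from 50 kb before its 5′ end to 10 kb past its 3′ end, and a peak belonged to it by its summit, the base of highest coverage. When overlapping peaks of the 4 libraries were merged, the windows held 47 of 36037 regions. Promoter peaks were those with a summit no more than 1 kb from an annotated transcription start site (TSS).

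ATAC-seq sequences the DNA that the transposase Tn5 can reach and so reads out open chromatin. To examine what esculetin, a plant coumarin, does to open chromatin during lipid uptake, RAW264.7 cells, a wild-type mouse macrophage line, were given 25 ug/mL DIL-oxLDL, a dye-carrying oxidized low-density lipoprotein, for 24 h. The control group (n = 2) received the solvent DMSO with it, and the esculetin group (n = 2) received 40 ug/mL esculetin with it. All 4 libraries thus came from lipid-loaded cells of 1 line at 1 time, and nothing states that the libraries of a group came from separate cultures, so the spread between them may be technical.

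Transcription factors bind short DNA motifs, and most of them reach these motifs only where nucleosomes have been moved aside. Macrophages depend on the ETS factor PU.1, the product of Spi1, which opens lineage enhancers together with partners that signals bring in. The genes of such factors are commonly controlled by a promoter and by several distal elements, so both were examined here.

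The lists used held 19475 and 27731 peaks with DMSO and 8581 and 12680 with esculetin, where replicate 1 of a group is always given before replicate 2. Depth, given as the genome-wide background coverage that the peak caller used, was 6.51 and 4.08 with DMSO and 4.97 and 4.1 with esculetin, so it did not order the libraries as the list length did. Control replicate 2 stood apart, with 7.40% of its summits inside annotated pseudogenes against 0.836% to 1.97% in the other libraries. Strength was compared as the percentile of the −log10 p of a peak within the list of its own library, where 100 is the strongest. A percentile depends on the length of the list, so comparisons were also made on equal lists, the 8581 strongest peaks of each library. Of 12 macrophage marker genes, 6, 7, 0 and 3 had a promoter peak in the 4 libraries in this order, against 40.7%, 42.1%, 30.1% and 37.9% of coding genes, and Csf1r, Adgre1, Itgam and Cybb had none in any library. The markers examined of B cells, T cells, fibroblasts, epithelium, kidney epithelium and erythroid cells had no promoter peak in any library, with 3 of 4 erythroid markers found in the gene table.

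The windows of the 9 genes held fewer peaks after esculetin, most clearly at Fli1 and Mitf, while most promoters kept a peak. Control replicates 1 and 2 had 30 and 35 peaks in the windows, and esculetin replicates 1 and 2 had 10 and 16. These numbers were 0.154% and 0.126% of the control lists and 0.117% and 0.126% of the esculetin lists, so the windows lost peaks roughly as the whole lists did. With equal lists the windows held 13 and 11 peaks with DMSO and 10 and 14 with esculetin, and the groups overlapped.

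A promoter peak was present in all 4 libraries for 6 of the 9 genes (66.7%), namely Spi1, Ets2, Elf1, Mitf, Klf4 and Bhlhe40, against 26.9% of coding genes. With equal lists only Elf1 and Bhlhe40 kept one in all 4 libraries, and the share of coding genes was not counted there. Fli1 and Tfec had no promoter peak in any library (22.2% of the 9, against 52.8% of coding genes), and Maf had one in control replicate 2 only. Spi1, Fli1, Maf and Bhlhe40 were not in the promoter table, so only their outermost 5′ end counted as a TSS. Peaks at other starts of these genes would not count as promoter peaks. Of the 47 regions, 9 (19.1%) were called in all 4 libraries, near the 17.2% of all regions, and 6 of these 9 were promoters of the named genes. Another 9 regions (19.1%) were called in both control libraries but in neither esculetin library, against 13.9% of all regions. All 9 lay inside a gene and more than 1 kb from every annotated TSS. Of the 47 regions, 34 were that far from a TSS, 26 of them inside 1 of the 9 genes. Among these 34 regions the control-only share was 26.5%, against 16.0% of all regions that far from a TSS. Of these 9 control-only regions, 5 were in Fli1, 3 in Mitf and 1 in Spi1, so the share rests mainly on Fli1. No region was called in both esculetin libraries alone, a class that held 0.832% of all regions. Of the same 34 regions, the control libraries called 20 and 22 (58.8% and 64.7%) and the esculetin libraries 2 and 4 (5.88% and 11.8%). Over all 22806 regions that far from a TSS the shares were 42.4% and 70.4% in the control group and 10.5% and 20.4% in the esculetin group, so a lower share with esculetin was common to the lists.

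**Figure D1:**
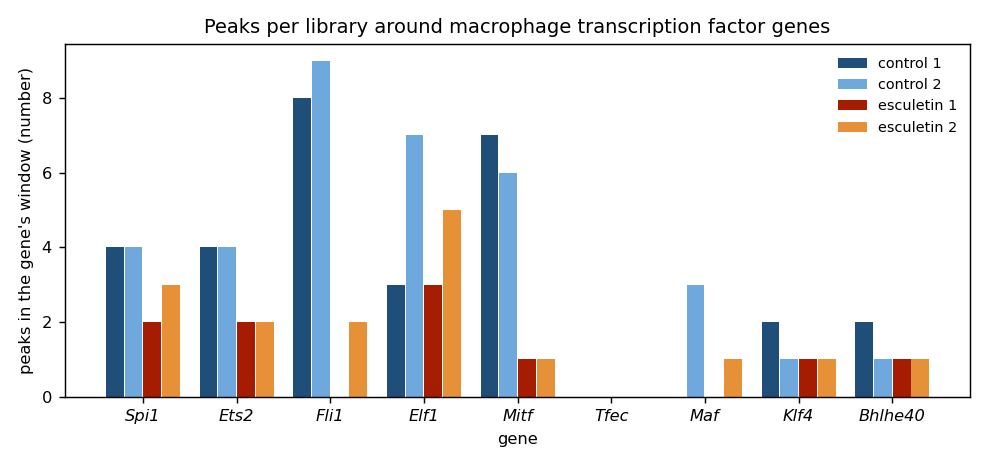
Number of peaks in the window of each gene (y axis), with 1 bar per library for the 9 genes (x axis). Fli1 has 8 and 9 peaks with DMSO against 0 and 2 with esculetin, Mitf 7 and 6 against 1 and 1, and Tfec has none.

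Promoter sequence is shown for the 4 genes whose promoter had a peak in every library and that are in the RefSeq promoter table used here, so that base composition and motifs can be read beside the peaks. Each run stops at the base before the outermost 5′ end of the gene, reads 5′ to 3′ along the gene, and is in the build GRCm38.p6, whose chromosomes are those of mm10. The coordinates are chr16:95702157-95702406 (plus strand) for Ets2, chr14:79480944-79481173 (plus) for Elf1, chr6:97806808-97807001 (plus) for Mitf and chr4:55532476-55532725 (minus) for Klf4. Capitals mark matches on either strand to the GC box GGGCGG, the E-box CACGTG and TGCTGA, which is one side of the Maf recognition element.
Ets2: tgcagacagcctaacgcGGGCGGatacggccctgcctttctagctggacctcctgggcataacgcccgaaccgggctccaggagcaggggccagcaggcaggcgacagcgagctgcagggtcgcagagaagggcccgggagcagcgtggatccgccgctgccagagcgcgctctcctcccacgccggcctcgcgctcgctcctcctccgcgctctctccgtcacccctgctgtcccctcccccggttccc
Elf1: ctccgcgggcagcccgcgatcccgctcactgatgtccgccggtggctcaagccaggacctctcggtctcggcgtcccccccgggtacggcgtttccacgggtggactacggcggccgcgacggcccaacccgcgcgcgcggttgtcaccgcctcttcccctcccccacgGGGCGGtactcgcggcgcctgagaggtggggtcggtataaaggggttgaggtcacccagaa
Mitf: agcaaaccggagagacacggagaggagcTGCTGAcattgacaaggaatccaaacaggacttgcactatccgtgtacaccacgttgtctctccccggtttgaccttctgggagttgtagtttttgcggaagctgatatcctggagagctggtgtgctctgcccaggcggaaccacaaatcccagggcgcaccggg
Klf4: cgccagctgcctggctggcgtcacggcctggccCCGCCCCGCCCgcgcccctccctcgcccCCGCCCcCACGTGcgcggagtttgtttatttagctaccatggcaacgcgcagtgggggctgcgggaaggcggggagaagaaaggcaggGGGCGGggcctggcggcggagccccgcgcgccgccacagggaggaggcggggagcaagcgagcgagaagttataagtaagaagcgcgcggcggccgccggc
Of these runs, Ets2, Elf1 and Klf4 were rich in G and C (71.6%, 71.7% and 74.0%) and in CpG dinucleotides (25, 31 and 32), against medians of 52.4% and 6 over the 250 bases before the TSS in 32851 promoters. The Mitf run, at 194 bases, had 55.7% G and C and 9 CpG. The GC box occurred once in Ets2, once in Elf1 and 4 times in Klf4, where the first pair shares 1 base, and not in Mitf. At the same lengths, 32.7% of all promoters held it for the 250 bases of Ets2 and Klf4, 29.8% for the 230 bases of Elf1 and 23.6% for the 194 bases of Mitf. The E-box was present in Klf4 only (6.02% of all promoters), and TGCTGA in Mitf only (12.6%). The letters GGAAGT, read by ETS factors, and TGACTCA, read by AP-1, occurred in none of the 4 runs. At the same lengths, 14.1% to 19.7% of all promoters held GGAAGT and 3.44% to 4.46% held TGACTCA. Only these exact letters were counted, not other forms of these motifs. The Klf4 run lay wholly inside the promoter peak of all 4 libraries. Peaks covered 100% of the Ets2 run in 3 libraries and 66.8% in esculetin replicate 1, and 72.7% to 100% of the Mitf run. At Elf1, peaks covered 82.6% of the run in esculetin replicate 1 and 100% in the other libraries, but in control replicate 2 and esculetin replicate 2 this was a separate peak, and the strongest promoter peak lay further inside the gene.

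Spi1 encodes PU.1, the ETS factor required for the myeloid lineage, and lies on the plus strand at chr2:91082374-91115759. Its window held 4 and 4 peaks with DMSO and 2 and 3 with esculetin. The esculetin libraries were both lower, but by 1 or 2 peaks (exact permutation p = 0.33, the smallest that 2 libraries per group allow for any gene here), and with equal lists the numbers were 3 and 1 with DMSO against 2 and 3 with esculetin. The peak counted as promoter, by the outermost 5′ end alone, had its summit 583 to 727 bp past it in all libraries. Its percentile was 66.4 and 45.4 with DMSO and 17.1 and 49.9 with esculetin. Esculetin replicate 1 was lowest, while replicate 2 lay between the controls, so the groups overlapped. Means were 55.9 ± 14.8 (SD, n = 2) and 33.5 ± 23.2 (SD, n = 2), with an exact permutation p of 0.67. Summit coverage over the genome-wide background was 6.91 and 8.33 with DMSO and 5.03 and 7.81 with esculetin, which also overlapped.

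Inside Spi1, a region at chr2:91096528-91096855, 14358 bp past the 5′ end, was called in both control libraries, at percentiles of 33.4 and 54.0, and was not called with esculetin. It did not count as a promoter, because the outermost 5′ end was the only Spi1 start used. Whether another start lies there was not examined. The other strong peaks of this window belonged to neighbouring genes. The promoter of Slc39a13, a zinc transporter gene, was called in all 4 libraries at percentiles of 70.5 and 86.1 with DMSO and 66.0 and 71.6 with esculetin. The promoter of Psmc3, a proteasome subunit gene, was called in control replicate 1 and esculetin replicate 2 only.

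Ets2, an ETS factor downstream of Ras and MAP kinase signals, lies on the plus strand at chr16:95702407-95721049. The window held 4 and 4 peaks with DMSO and 2 and 2 with esculetin (exact permutation p = 0.33). The peaks present only in the control group lay before the gene, each in a single library, so none of them was shared by the controls. With equal lists the order turned, to 1 and 1 peaks with DMSO against 2 and 2 with esculetin. The promoter peak, with summits within 48 bp of each other around the TSS, had percentiles of 53.5 and 73.5 with DMSO and 19.5 and 42.1 with esculetin. Both esculetin values lay below both control values. Group means were 63.5 ± 14.1 with DMSO and 30.8 ± 16.0 with esculetin (SD, n = 2 each), a difference of -32.7 percentile points (exact permutation p = 0.33), and this difference exceeded either SD. Summit coverage over background was 5.99 and 10.5 with DMSO and 4.83 and 6.83 with esculetin, and on this scale esculetin replicate 2 lay above control replicate 1. In width the peak measured 893 and 866 bp with DMSO and 315 and 692 bp with esculetin. With equal lists it was no longer called in control replicate 1, and its percentile was 14.3 in control replicate 2 against 19.5 and 14.4 in the esculetin libraries. A second region called in all 4 libraries lay past the 3′ end at chr16:95728662-95729390, with percentiles of 75.8 and 53.8 with DMSO and 22.3 and 59.4 with esculetin, which overlapped.

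Fli1, an ETS factor of the haematopoietic and endothelial lineages, lies on the minus strand at chr9:32422204-32543432. It showed the largest difference in peak number of the 9 genes, with 8 and 9 peaks with DMSO and 0 and 2 with esculetin (mean 8.5 against 1.0, exact permutation p = 0.33). The groups were separated by 6 peaks or more, and this gap does not rest on control replicate 2, since control replicate 1 alone had 8. None of these peaks was at a promoter by the starts used, which for Fli1 was its outermost 5′ end only.

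Within the gene, 5 regions were called in both control libraries but in neither esculetin library. The one nearest to the 5′ end, chr9:32540078-32540651, lay 3184 bp inside the gene at percentiles of 66.6 and 81.7 in control replicates 1 and 2. The next, chr9:32516436-32517065, lay 26541 bp inside at percentiles of 62.8 and 71.2. A pair followed, chr9:32509790-32510124 at 33445 bp with percentiles of 39.6 and 32.6, and chr9:32508709-32508988 at 34564 bp with percentiles of 64.5 and 73.5. The region at 33445 bp was the weakest of the 5 in both lists. The deepest, chr9:32475026-32475349, lay 68236 bp inside at percentiles of 74.8 and 76.8. Hence 4 of the 5 stood in the upper part of both control lists. Whether these positions are exonic or intronic was not examined. A further region at 27382 bp, chr9:32515717-32516210, was called in both controls at percentiles of 37.8 and 63.5 and in esculetin replicate 2 at 45.6, so the locus was not without peaks in that library.

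By rank, the same 4 regions stood between 4913.5 and 7995 in both control lists, inside the 8581 peaks of the shortest list, esculetin replicate 1. With equal lists Fli1 had 4 and 4 peaks with DMSO and 0 and 1 with esculetin, and its 4 control-only regions were all those of the 9 genes (4 of 20 regions, 20.0%, against 3.49% of all regions). The share called in all 4 equal lists was also 4 of 20 regions, 20.0%, against 19.3% of all regions. The number of control-only regions at Fli1 was set beside that of every coding gene after its values were seen, so the following counts are a description. In the full lists 37 of 21422 coding gene windows (0.173%) had at least the 5 control-only regions of Fli1, and 29 of the 1890 genes at least as long (1.53%). With equal lists, Fli1 was the only coding gene whose window held 4 (0.00467%), and 5 other coding genes held 3.

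**Figure D2:**
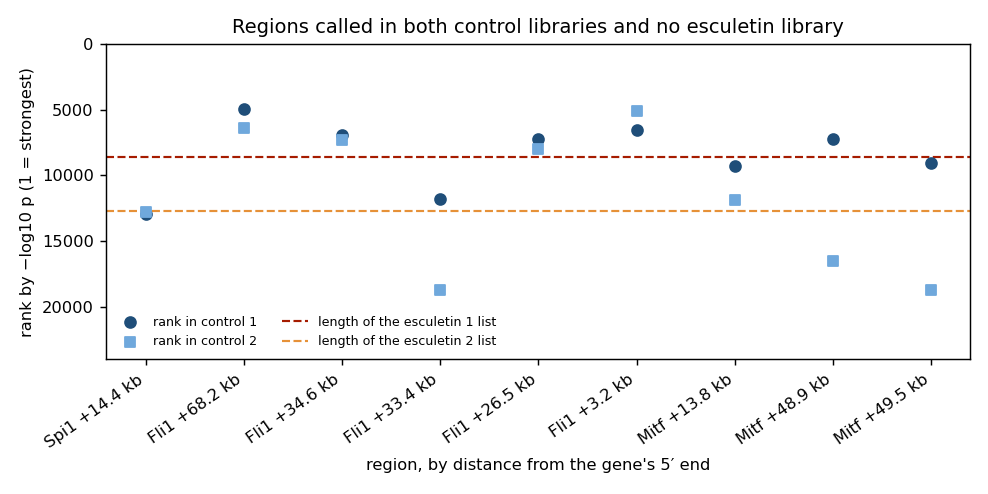
Rank of each region called in both control libraries but in neither esculetin library (y axis, 1 is the strongest peak of the list) for the 9 regions, named by gene and distance from its 5′ end in kb (x axis). Dashed lines are the lengths of the esculetin lists, 8581 and 12680, and 4 of the 5 Fli1 regions lie above both lines in both control libraries.

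Elf1, an ETS factor of lymphoid and myeloid cells, lies on the plus strand at chr14:79481174-79582491. Its window held 3 and 7 peaks with DMSO and 3 and 5 with esculetin (exact permutation p = 1.0), so the groups overlapped, and replicate 2 was the higher library of each group. The promoter, which it shares with Wbp4, a splicing factor gene, was called in all 4 libraries. Percentiles were 92.6 and 70.2 with DMSO and 42.7 and 75.4 with esculetin (exact permutation p = 0.67). Esculetin replicate 1 was lowest and esculetin replicate 2 lay between the controls. With equal lists the percentiles were 83.1 and 3.7 with DMSO and 42.7 and 63.6 with esculetin, so the controls were the highest and the lowest library. Another annotated start of Elf1, inside the gene, had a peak in control replicate 2 and esculetin replicate 2 only, at percentiles of 45.4 and 31.1. The promoter of Sugt1, a co-chaperone gene past the 3′ end of Elf1, was among the strongest regions of these windows, at percentiles of 93.9 and 80.9 with DMSO and 92.4 and 90.4 with esculetin.

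Mitf encodes a basic helix-loop-helix zipper factor of melanocytes, osteoclasts and macrophages, and lies on the plus strand at chr6:97807002-98021360 with 4 annotated starts. Peak numbers were 7 and 6 with DMSO and 1 and 1 with esculetin (exact permutation p = 0.33), and the groups did not overlap. The peak that remained in both esculetin libraries was the promoter peak. Its percentile was 73.0 and 53.4 with DMSO and 26.4 and 85.1 with esculetin. The esculetin libraries were thus the lowest and the highest of the 4, with means of 63.3 ± 13.9 and 55.7 ± 41.5 (SD, n = 2 each, exact permutation p = 1.0). Summit coverage over background also placed the esculetin libraries at the ends, with 4.63 and 10.7 in the esculetin libraries on either side of 5.99 and 7.35 in the controls, but the controls changed places and the group mean was higher with esculetin.

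The remaining Mitf peaks lay inside the gene and were called in control libraries only. Of these, 3 regions were common to both controls. The first, chr6:97820698-97820981, lay 13844 bp past the 5′ end at percentiles of 52.3 and 57.2. A pair lay close together, at 48931 bp (chr6:97855795-97856074, percentiles of 62.9 and 40.4) and 49538 bp (chr6:97856234-97856805, percentiles of 53.7 and 32.5). In contrast to Fli1, none of the 3 ranked within 8581 in both control lists, and with equal lists Mitf had 2 and 0 peaks with DMSO against 1 and 1 with esculetin. The difference at Mitf thus ended when lists of one length were compared.

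**Figure D3:**
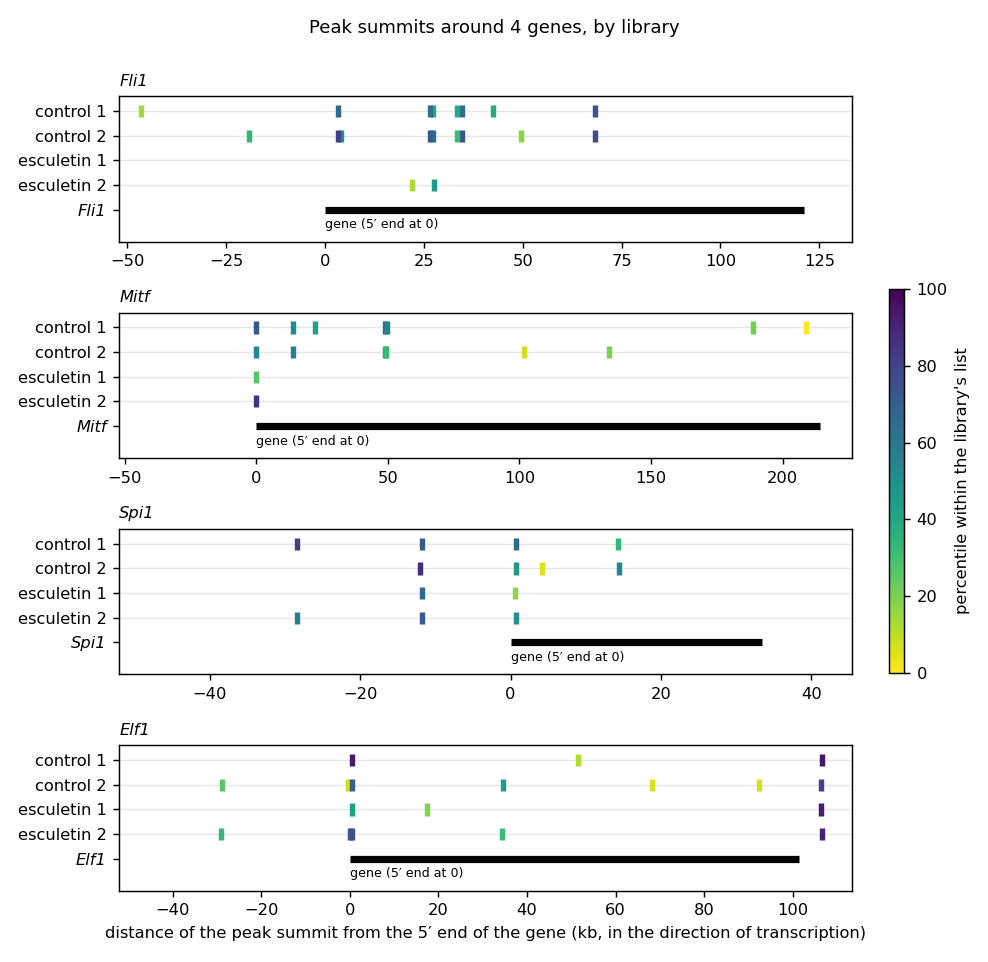
Position of every peak summit around Fli1, Mitf, Spi1 and Elf1 (x axis, distance from the 5′ end in kb along the direction of transcription), with 1 row per library and colour for the percentile of the peak within its list. The bar is the gene. Inside Fli1 and Mitf the control rows hold several peaks where the esculetin rows hold few or none, while the promoter peaks of Mitf, Spi1 and Elf1 recur in all 4 rows.

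Tfec, a relative of Mitf with expression centred on macrophages and osteoclasts, lies on the minus strand at chr6:16830927-16898464. No library had a peak in its window, which was also true of 22.0% of coding gene windows. Whether its chromatin was closed or below the reach of the lists cannot be told from them, since the lowest peaks stood at 2.61 to 3.19 times the background. The other MiT/TFE genes, Tfe3 and Tfeb, which act in lysosome biogenesis, had a promoter peak in all 4 libraries. The Tfe3 percentiles were 51.0 and 58.0 with DMSO and 74.1 and 80.3 with esculetin, both esculetin values above both controls. Those of Tfeb were 68.3 and 27.8 with DMSO and 30.0 and 14.3 with esculetin, which overlapped.

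Maf, which encodes the large Maf factor c-Maf of tissue macrophages and T helper cells, lies on the minus strand at chr8:115703253-115706894. It had 0 and 3 peaks with DMSO and 0 and 1 with esculetin (exact permutation p = 1.0). The 3 peaks of control replicate 2 lay 327, 974 and 2851 bp past the 5′ end, at percentiles of 44.7, 57.3 and 87.4, and they were found in no other library. This is the library with the higher share of summits in pseudogenes, and the part of that in the Maf peaks was not tested. The single peak of esculetin replicate 2 lay 1073 bp before the gene at a percentile of 67.5. No position was thus called in more than 1 library.

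Klf4 encodes a zinc finger factor of monocyte differentiation and alternative activation, and lies on the minus strand at chr4:55527137-55532475. The window held 2 and 1 peaks with DMSO and 1 and 1 with esculetin. Its promoter peak, shared with the non-coding gene Gm12506, had percentiles of 53.1 and 71.4 with DMSO and 69.3 and 77.6 with esculetin. On this percentile it was the only one of the 6 promoters with a higher mean after esculetin, 73.5 ± 5.93 against 62.2 ± 13.0 (SD, n = 2 each), yet the groups overlapped (exact permutation p = 0.67). By coverage over background the Mitf promoter was higher too, while the means of Elf1 and Bhlhe40 were higher by percentile in equal lists, though not without control replicate 2, nor, for Elf1, without esculetin replicate 2. Coverage over background was 5.68 and 10.3 with DMSO and 8.25 and 10.2 with esculetin. With equal lists the Klf4 promoter peak was no longer called in control replicate 1. Its percentile was then 7.5 in control replicate 2 against 69.3 and 67.0 in the esculetin libraries.

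Bhlhe40 encodes a basic helix-loop-helix repressor that acts in macrophage proliferation and the circadian clock, and lies on the plus strand at chr6:108660629-108666925. All its peaks fell in 1 region across the promoter, which it shares with 0610040F04Rik. Percentiles were 83.3 and 71.5 with DMSO and 63.4 and 71.4 with esculetin. Both esculetin values were the lower ones, but the values of control replicate 2 and esculetin replicate 2 were nearly equal. By the percentile of the fold enrichment, values were 59.2 and 39.1 with DMSO and 43.6 and 54.6 with esculetin. These overlapped, with a difference of -0.05237. With equal lists the percentiles were 62.1 and 7.9 with DMSO and 63.4 and 57.7 with esculetin, so that the mean was higher with esculetin, but without control replicate 2 it was again lower. Coverage over background overlapped, at 9.37 and 12.8 with DMSO and 9.05 and 11.2 with esculetin. Group means were 77.4 ± 8.33 with DMSO and 67.4 ± 5.62 with esculetin (SD, n = 2 each, exact permutation p = 0.33).

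**Figure D4:**
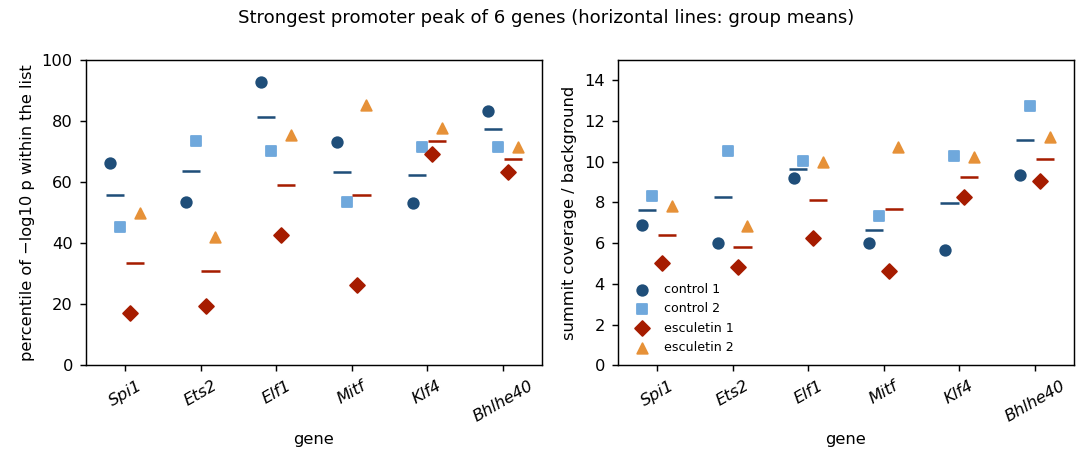
Strongest promoter peak of the 6 genes (x axis) with one in every library, as percentile of −log10 p within the list (left, y axis) and as summit coverage over the genome-wide background (right, y axis). Points are libraries and horizontal lines are group means. Esculetin replicate 1 is the lowest point for every gene except Klf4 in the left panel, and the groups are apart only for Ets2 and, narrowly, Bhlhe40.

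The percentiles of the 9 regions called in all 4 libraries were lower on average after esculetin at 7, with a median difference of -10.02 percentile points. Over all 6181 such regions the median difference was -4.59, so the direction was that of the lists as a whole. It turned when equal lists were compared, to 21.8 over the 4 regions of the windows then called in every library and to 11.2 over all such regions. The size of that turn rested on control replicate 2, without which the equal-list medians were 0.683 and 0.0699, still positive. Both esculetin values lay below both control values at 2 of the 9 regions, the Ets2 and Bhlhe40 promoters, against 31.0% of all such regions. At none of the 9 did both lie above, against 14.5%. Esculetin replicate 1 was the lowest library at 7 of the 9. On the scale of coverage over background, the median ratio of esculetin to control was 0.927 over the 9 regions and 1.03 over all.

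The families to which the 9 genes belong were counted by promoter peaks in the same way. Of 22 other ETS genes, 5 (Gabpa, Elf2, Elk1, Elk4 and Etv5) had a promoter peak in all 4 libraries, 1 (Etv1) in both controls only, 6 in another combination and 10 in none. By library, the ETS genes with a promoter peak numbered 11 and 11 in the control group and 5 and 11 in the esculetin group. Of 16 other KLF genes, 7 had one in all 4 libraries, and Klf6 alone in both esculetin libraries only, at percentiles of 30.1 and 80.0. Of 6 other MAF genes, 3 (Mafa, Maff and Mafk) had one in all 4 libraries. Of 6 Hey, Hes and Dec genes, the relatives of Bhlhe40, 2 had one in all 4 libraries and 3 in none. Over the 52 family genes, promoter peaks were found at 28 and 26 with DMSO and 22 and 29 with esculetin, and the groups overlapped. Of these 52 genes 19 had one in all 4 libraries and 21 in none, beside the 26.9% and 52.8% of all coding genes, whose shares by library were 40.7% and 42.1% in the control group and 30.1% and 37.9% in the esculetin group.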

How the data were processed

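ATAC-seq of 4 RAW264.7 libraries was used. Per the study's methods, the authors trimmed reads with Trim-Galore, aligned them to mm10 with Bowtie2, used Sambamba to drop duplicates and reads with several mapping positions, and ran MACS2 on each library; its options, including any Tn5 shift, are not given in the sources used here. The deposited lists hold a score (not used), the fold enrichment at the summit, a ratio, and each peak's significance as −log10 p and −log10 q. They hold no read counts, so the count model of the study was not run. Depth and summit coverage were solved from fold and −log10 p. Peaks on chromosomes 1 to 19, X and Y were merged across libraries at an overlap of 1 bp. Gene spans, 58075 starts, strands and promoter sequences came from RefSeq tables of GRCm38.p6, with strands of the remaining genes from GENCODE vM39. Promoter sequences of 5 of the 9 genes were in the table. Exon and intron annotation was not used. Single genes were tested by two-sided exact permutation over the 6 splits of 4 libraries. All 9 genes are named, in order of role. The genes, family lists and marker lists were chosen with earlier results of these data known. The procedure was tested on simulated data. SciPy 1.17.1, NumPy 2.4.6 and pandas 2.3.3 were run in Python 3.11.15, with figures drawn by matplotlib 3.10.9.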

Additional observations from a re-analysis of the deposited data

How the results depend on the processing

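The windows had 19.5 fewer peaks on average after esculetin (-19.5). The difference was -13 when peaks were given to genes by nearest TSS and 0 with equal lists, where the share of the list also differed by 0 percentage points. The mean number of genes with a promoter peak differed by -0.5, by 2 with equal lists (reversed), by 0 with promoter windows of 500 bp and of 2 kb, and by -1 to 0 on leaving out a library. Control-only regions numbered 9, 4 with equal lists, and 9 to 22 on leaving out a library (22 without control replicate 1, 18 without control replicate 2). Esculetin-only regions numbered 0 to 2. The median percentile difference of -10.02 became 21.76 with equal lists (reversed) and ranged from -36.83 without esculetin replicate 2 to -5.691 without esculetin replicate 1. With a library left out of equal lists it ranged from 0.6832 without control replicate 2 to 50.05 without control replicate 1, with 21.41 and 25.18 without esculetin replicates 1 and 2. By rank from the top of the list, control minus esculetin, the direction turned for Spi1 (4102), Ets2 (1080), Elf1 (831.2), Mitf (4975) and Bhlhe40 (2192), since shorter lists give lower ranks. By percentile in equal lists it turned for Elf1 (9.687) and Bhlhe40 (25.54), and those of Spi1, Ets2, Mitf and Klf4 were called in 3 of the 4 equal lists, so no difference was formed. On leaving out control replicates 1 and 2 and esculetin replicates 1 and 2 in turn, the equal-list differences were 49.39, -30.02, 20.14 and -0.7691 for Elf1 and 52.62, -1.538, 22.68 and 28.41 for Bhlhe40. The Mitf promoter turned with coverage over background (1.008) and ranged from -36.83 to 21.81 on leaving out a library. Peak number turned with equal lists for Spi1 (0.5), Ets2 (1.0), Elf1 (1.5) and Klf4 (0.5), and on leaving out a library it ranged from -3.0 to 1.0 for Elf1 and from -2.5 to 0.5 for Maf. In all, 34 of the 44 alternatives that changed 1 choice for single promoters and 36 of 54 for single peak numbers kept the direction, Fli1 among them in every one run, and 12 of the 54 gave a difference of 0. The 54 include the replicate block of each gene, which leaves a difference unchanged by construction. Among the 44, the Bhlhe40 promoter by percentile of the fold kept its direction only at -0.05237. The alternatives for single peak numbers and those that left a library out of equal lists were chosen after seeing the data. With replicate numbers as a replicate block the difference in peaks was -19.5 by construction (pairs -20 and -19), so this alternative could not change it. Percentiles of same-numbered libraries did not deviate together over the 6181 regions called in all 4 libraries (correlation -0.00123). Whether these libraries share a batch or culture that acts on depth or list length was not tested. Peak names in the esculetin lists carry other replicate numbers than the labels, which leaves these numbers in doubt. Causes of these changes were not tested unless given. With 2 libraries per group no single difference could pass an exact test, and absence from a list is not absence of accessibility.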
